A study of Mus musculus with 4 samples.

Results

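Rps15a-ps8, Gm12751 and Mrpl23-ps1 are 3 of the 26041 gene symbols in the single-cell count tables of sorted testis cells, and each is annotated as a pseudogene. They were chosen by their higher levels in Plzf lu/lu than in Plzf +/+ cells of these same tables, so their levels and genotype differences are described here and are not tested. Tests were kept for the parent genes and for other genes. Testes of mice aged 4 wk were dissociated and their tdTOMATO-positive cells sorted, 1 cell per well, the fluorescence coming from an Eomes-iCreERt2-tdTomato allele, and transcripts were sequenced from the 3′ end with molecules counted by their unique molecular identifiers (UMIs). Plzf +/+ cells filled plates 1 and 2 and most of plate 4 (317, 303 and 277 cells), and Plzf lu/lu cells, homozygous for the luxoid mutation of Plzf (listed as Zbtb16), filled plate 3 and the first wells of plate 4 (314 and 38 cells). All 4 plates carry the same B6N strain label, with the Eomes knock-in allele in both genotypes. The labels name neither the animals behind a plate nor the strain in which the luxoid mutation was kept. A plate and a genotype cannot be told apart outside plate 4, and p-values measure the spread between libraries, which may be smaller than that between mice.

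Processed pseudogenes arise when a spliced messenger RNA is copied back into DNA and inserted elsewhere in the genome, so they lack introns and resemble the transcript of their parent gene. Highly expressed genes, those of ribosomal proteins above all, have left many such copies in mammalian genomes. In 3′ end sequencing a short read is assigned to a pseudogene or to its parent by the few bases in which they differ. A read from 1 of them can therefore be counted under the other where these bases are not covered. Rps15a encodes a protein of the small cytosolic ribosomal subunit, Mrpl23 a protein of the large mitochondrial ribosomal subunit, and Polr1d a subunit shared by RNA polymerases I and III.

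Rps15a-ps8 lies on chromosome 4 of GRCm38, the build named in the submitters' processing notes, at chr4:53791031-53791468 in the RefSeq annotation. It spans 438 bases and is intergenic. Tal2, a basic helix-loop-helix transcription factor gene, lies 2319 bases away on one side and Tmem38b, an intracellular cation channel gene, 34520 bases away on the other. Gm12751 lies on the same chromosome, 19.4 Mb away, at chr4:34353965-34354854, between Spaca1 and Akirin2. Mrpl23-ps1 lies at chr2:74591359-74591915, between Atp5g3 and Evx2. The mutated gene, Zbtb16, is on chromosome 9, so none of the 3 shares its chromosome. The name of Gm12751 does not tell its parent. A search with its sequence among protein-coding transcripts of GENCODE vM1 found Polr1d, whose transcript matched it over 879 bases with 99.2% identity.

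The sequences show how differently the 3 pseudogenes relate to their parents. The stretches shown are those that align with the last 120 coding bases of the parent transcript, up to the stop codon, the coding end nearest to where 3′ end libraries take their reads. They come from build NCBIM37, the genome at hand, in which each copy was found by its match to the parent transcript between the same neighboring genes. Capitals mark bases that differ between a pseudogene and its parent.
Rps15a-ps8, chr4:53803920-53804055, minus strand: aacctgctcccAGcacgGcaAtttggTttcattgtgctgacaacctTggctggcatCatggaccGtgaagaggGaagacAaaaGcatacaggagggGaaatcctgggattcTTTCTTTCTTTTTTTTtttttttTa
Rps15a, GENCODE vM1 transcript: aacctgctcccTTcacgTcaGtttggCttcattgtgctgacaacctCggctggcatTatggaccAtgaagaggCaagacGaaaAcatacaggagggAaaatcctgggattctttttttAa
Gm12751, chr4:34301553-34301672, plus strand, identical to Polr1d: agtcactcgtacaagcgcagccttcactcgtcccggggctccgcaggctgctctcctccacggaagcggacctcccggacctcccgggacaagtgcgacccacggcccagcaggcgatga
Mrpl23-ps1, chr2:74429509-74429628, minus strand, identical to Mrpl23: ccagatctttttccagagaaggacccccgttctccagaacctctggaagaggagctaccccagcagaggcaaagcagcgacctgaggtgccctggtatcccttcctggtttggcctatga

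Rps15a-ps8 carries 13 substitutions and a run of 16 inserted bases, nearly all T, in this stretch, and their place within the run of T is arbitrary. Over its whole match it was 88.6% identical to the Rps15a transcript, with 34 mismatches. Gm12751 was identical to Polr1d over all 381 coding bases, and its 6 mismatches lay outside them. Mrpl23-ps1 was identical to Mrpl23 over all 524 bases matched. Reads from inside the Mrpl23-ps1 match, or from the coding part of Gm12751, cannot be told from those of the parent by sequence, and how the authors' counting treated reads with more than 1 place in the genome is not given in the sources used here. The sequences are those of the reference genome, not of the mice studied.

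Rps15a-ps8 was the most abundant of the 3 in both genotypes' means and had the largest gap in detection, while Gm12751, described next, had the larger fold difference. Plates 1, 2 and 4 held 228, 252 and 268 UMIs of it in Plzf +/+ cells, and plates 3 and 4 held 2762 and 293 in Plzf lu/lu cells. After normalization of library sums, in counts per 1000000 (CPM), these were 107, 104 and 137 CPM against 1101 and 1178 CPM. The small Plzf lu/lu library of plate 4 and the large one of plate 3 thus stood at nearly the same level, and the lower of them was 8.01-fold above the highest Plzf +/+ library. The means were 116 ± 18.7 CPM (SD, n = 3) in Plzf +/+ and 1140 ± 55.1 CPM (SD, n = 2) in Plzf lu/lu, a 9.84-fold difference (log2 fold change 3.30, standard error 0.16). Library sums do not by themselves tell more expressing cells from more RNA per cell. The UMIs of single cells are given below.

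**Figure D1:**
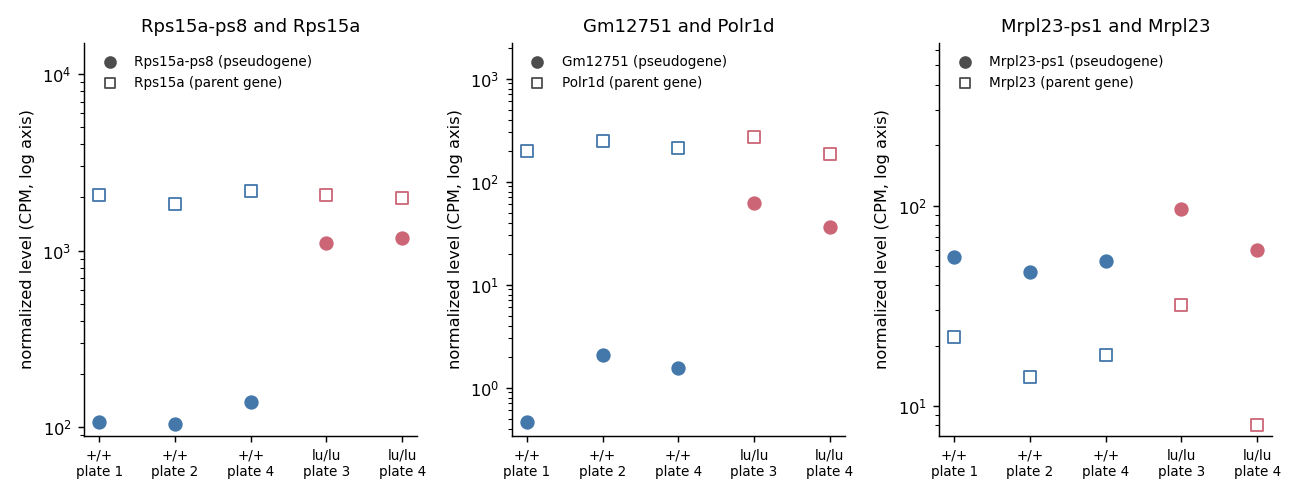
Normalized level (CPM, log axis) of each pseudogene (filled circles) and its parent gene (open squares) in the 3 Plzf +/+ libraries (blue) and the 2 Plzf lu/lu libraries (red), 1 point per library. Rps15a-ps8 and Gm12751 are far higher in both Plzf lu/lu libraries while the ranges of Rps15a and Polr1d overlap; Mrpl23-ps1 and Mrpl23 are highest in the plate 3 Plzf lu/lu library.

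More Plzf lu/lu cells had a UMI of it, and they held more UMIs on average. With so few UMIs in a Plzf +/+ cell, one without a UMI may still hold the RNA. The share of cells with a UMI thus does not tell more expressing cells from more RNA per cell. Rps15a-ps8 had a UMI in 46.1% of Plzf +/+ cells on plate 1 (exact 95% interval 40.5 to 51.7), 48.2% on plate 2 (42.4 to 54.0) and 54.2% on plate 4 (48.1 to 60.1). In Plzf lu/lu cells it had a UMI in 95.9% on plate 3 (93.0 to 97.8) and in 92.1% on plate 4 (78.6 to 98.3). These intervals cover counting error only. A Plzf +/+ cell held on average 0.719, 0.832 and 0.968 UMIs of it on plates 1, 2 and 4, where no cell had more than 6. The averages were 8.80 and 7.71 in Plzf lu/lu, with a median of 7.5 and 8.5 and a highest value of 36 and 21 UMIs. After every cell was thinned to 2000 UMIs, the share of cells with Rps15a-ps8 was 18.6%, 21.7% and 24.7% in Plzf +/+ (of 307, 276 and 251 cells) and 87.2% and 82.8% in Plzf lu/lu (of 304 and 29 cells). The gap between the genotypes was wider at equal depth than in the cells as deposited.

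Gm12751 was scarce in all libraries and nearly absent from Plzf +/+ cells. The 3 Plzf +/+ libraries, in the order of their plates, held 1, 5 and 3 UMIs of it, and the Plzf lu/lu libraries held 157 and 9. These were 0.468, 2.05 and 1.54 CPM against 62.6 and 36.2 CPM. The 3 Plzf +/+ values were near the 3-UMI floor of their libraries, 1.22 to 1.52 CPM, so the fold differences are loosely fixed. The means were 1.35 ± 0.809 CPM (SD, n = 3) and 49.4 ± 18.6 CPM (SD, n = 2), and the log2 fold change was 5.21 (standard error 0.47). Cells with a UMI made up 0.316%, 1.65% and 1.08% of the Plzf +/+ libraries, with upper bounds of 1.75%, 3.81% and 3.13%, against 30.6% of the Plzf lu/lu cells of plate 3 (25.5 to 36.0) and 21.1% of those of plate 4 (9.55 to 37.3). Thinned to 2000 UMIs, 0, 1 and 1 Plzf +/+ cells had a UMI, against 33 of 304 (10.9%) and 2 of 29 (6.90%) Plzf lu/lu cells. No Plzf +/+ cell had more than 1 UMI, while single Plzf lu/lu cells held up to 8.

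Mrpl23-ps1 barely separated the genotypes by level, and by the share of cells its direction changed with the depth and the minimum of UMIs. Its UMIs numbered 118, 114 and 103 in Plzf +/+ and 240 and 15 in Plzf lu/lu, or 55.2, 46.8 and 52.8 CPM against 95.6 and 60.3 CPM. The plate 3 Plzf lu/lu library stood well above the rest, whereas that of plate 4 was 1.09-fold above the highest Plzf +/+ library and rested on 15 UMIs. The log2 fold change was 0.69 (standard error 0.22), and over the alternative fits, which left out libraries or changed cells, normalization or tool, it ranged from 0.21 to 0.89. The share of cells with a UMI was 27.1%, 28.7% and 27.8% in Plzf +/+, 47.5% in Plzf lu/lu on plate 3 (41.8 to 53.1), and 23.7% in Plzf lu/lu on plate 4 (11.4 to 40.2). On plate 4, the only plate with both genotypes, the Plzf lu/lu share was thus below the Plzf +/+ share, with an interval that covers it. Thinned to 2000 UMIs the shares were 10.1%, 10.9% and 12.4% in Plzf +/+ against 18.1% and 13.8% in Plzf lu/lu, the last being 4 of 29 cells. With a minimum of 2 UMIs they were 6.94%, 6.93% and 7.94% against 16.9% and 13.2%, so that both Plzf lu/lu libraries then lay above all 3 Plzf +/+ libraries, on plate 4 too. Both Plzf lu/lu libraries lay above all 3 Plzf +/+ libraries for each of the 3 pseudogenes, as they did for 18.5% of the 13728 genes tested.

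Against this background, edgeR's quasi-likelihood fit of library sums called 0.816% of the 13728 genes at a Benjamini-Hochberg adjusted p under 0.05, 0.583% higher and 0.233% lower in Plzf lu/lu. Calls of the members are not given, because the rows were picked on this contrast. The number of genes called depended on the libraries. It was 1387 without the plate 1 Plzf +/+ library, 6 without the plate 4 Plzf lu/lu library, and 1 without each of the others. Over 11 alternative fits the log2 fold change of Rps15a-ps8 lay between 3.22 and 3.42, and that of Gm12751 between 4.63 and 5.65.

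The parent genes served as controls. Rps15a UMIs numbered 4424, 4463 and 4221 in Plzf +/+ and 5153 and 494 in Plzf lu/lu, or 2070, 1833 and 2164 CPM against 2053 and 1987 CPM. The Plzf lu/lu values lay inside the range of the Plzf +/+ values. The ratio of the means was 0.999, the log2 fold change lay within -0.24 to 0.24 (2 standard errors on either side), and the gene was not called (edgeR adjusted p = 0.999). Polr1d had 196, 245 and 211 CPM against 270 and 185 CPM, with the Plzf lu/lu libraries above and below the Plzf +/+ range (log2 fold change 0.11, standard error 0.19, edgeR adjusted p = 0.901). Mrpl23 had 21.99, 13.97 and 17.94 CPM against 31.9 and 8.04 CPM, the last from 2 UMIs (log2 fold change 0.50, standard error 0.42, edgeR adjusted p = 0.689). Its Plzf lu/lu libraries also lay on both sides of the Plzf +/+ range, and the interval of 2 standard errors, -0.34 to 1.34, does not exclude a 2-fold difference. In alternative fits of the parents' own UMIs, the lowest edgeR adjusted p was 0.615 for Rps15a and 0.446 for Polr1d, both with cells thinned to 2000 UMIs. For Mrpl23 it was 0.138, without the plate 1 Plzf +/+ library.

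Each pseudogene was also set beside its parent within a library, which takes out differences in depth. Rps15a-ps8 made up 4.90%, 5.35% and 5.97% of the UMIs of the pair in Plzf +/+ libraries, and 34.9% (33.8 to 36.0) and 37.2% (33.8 to 40.7) in Plzf lu/lu libraries. Gm12751 made up 0.238%, 0.832% and 0.725% of the UMIs of Gm12751 plus Polr1d in Plzf +/+, against 18.8% (16.2 to 21.6) and 16.4% (7.77 to 28.8) in Plzf lu/lu. For both pairs the 2 Plzf lu/lu libraries agreed within counting error with each other. Mrpl23-ps1 took most of its pair in every library, 71.5%, 77.0% and 74.6% in Plzf +/+ and 75.0% and 88.2% in Plzf lu/lu, the last from 17 UMIs. The 5 intervals of that pair overlapped.

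In single cells the share of Rps15a-ps8 separated the genotypes on plate 4. It was taken in cells with at least 10 UMIs of the pair, and 5 cells of uncertain well, described below, were set apart. On plate 4 the share ranged from 0 to 20.0% with a median of 5.26% in 194 Plzf +/+ cells, and from 23.5 to 50.0% with a median of 40.0% in 25 Plzf lu/lu cells. No cell of either genotype lay in the range of the other. With 2 of the 5 set-apart cells counted in, at 28.6% and 33.3%, the Plzf +/+ range reached 33.3% and the ranges overlapped. The remaining 81 Plzf +/+ cells, the other 3 of the 5 among them, and 13 Plzf lu/lu cells of the plate had too few UMIs of the pair to be placed this way. The Plzf +/+ cells of plates 1 and 2 had medians of 4.45% and 5.56% and reached 21.1% and 27.3%. On plate 3 the median was 34.6% in 256 Plzf lu/lu cells, with a lowest value of 10.0%. A cut at 20% equals the top of the plate 4 Plzf +/+ range without the set-apart cells. The plate 4 counts over it, 0 of 194 Plzf +/+ and 25 of 25 Plzf lu/lu cells, thus restate the ranges above. On the other plates the cut was exceeded in 1 of 196 and 2 of 190 Plzf +/+ cells. It was exceeded in 247 of 256 Plzf lu/lu cells of plate 3.

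**Figure D2:**
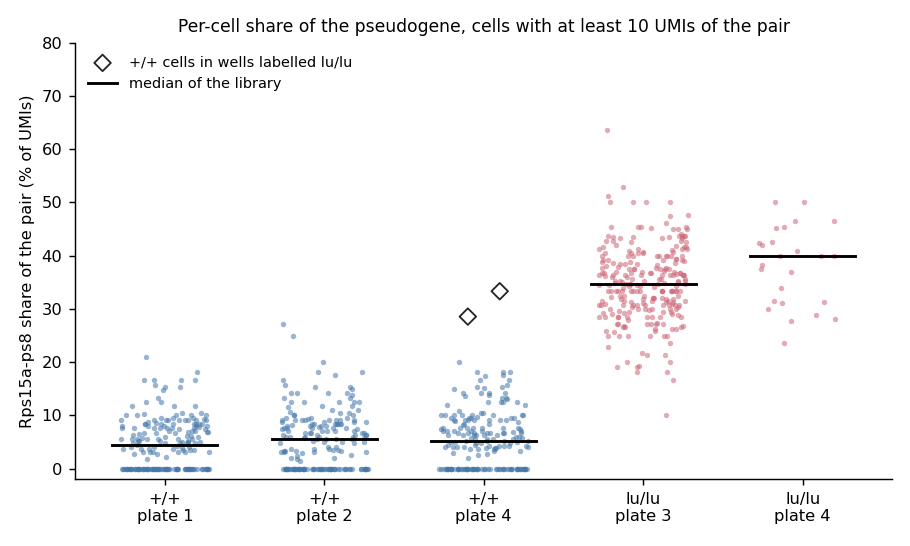
Rps15a-ps8 share of the UMIs of Rps15a-ps8 plus Rps15a in each cell with at least 10 UMIs of the pair, by library; each point is a cell, the black lines are library medians, and the open diamonds are 2 Plzf +/+ cells from wells labelled Plzf lu/lu. The Plzf +/+ medians lie between 4.45% and 5.56% and the Plzf lu/lu medians at 34.6% and 40.0%, with no overlap on plate 4 apart from the diamonds.

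Within the Plzf lu/lu cells the pseudogene followed its parent closely. Across the 314 cells of plate 3, Spearman's rho between the UMIs of Rps15a-ps8 and of Rps15a was 0.92, and across the 38 cells of plate 4 it was 0.91. In the Plzf +/+ libraries it was 0.52, 0.53 and 0.45. Both counts rise with the depth of a cell, which they share, and the Plzf +/+ cells hold few UMIs of the pseudogene. With cells thinned to 2000 UMIs rho was 0.51 and 0.57 in Plzf lu/lu and 0.14 to 0.23 in Plzf +/+. The spread of the share among cells was also narrow. Its SD in Plzf lu/lu cells was 7.09 percentage points on plate 3 and 7.42 on plate 4, below the 10.1 and 9.65 that independent binomial counting at the same depth would give. In the Plzf +/+ libraries the SD was 4.75, 5.45 and 5.20 points against 5.26, 5.48 and 5.59 from counting. Whether UMIs of 1 molecule were counted under both symbols was not tested, since the tables hold sums and not reads. For Gm12751 and Polr1d rho was 0.47 and 0.43 in the Plzf lu/lu libraries, with few UMIs in a cell.

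Of the 96 Plzf lu/lu cells of plate 3 with a Gm12751 UMI, 4 lacked one of Rps15a-ps8, and on plate 4 none of 8 did. Rps15a-ps8 had a UMI in 95.9% and 92.1% of all cells of these libraries, so most cells with Gm12751 would hold it in any case. All 3 pseudogenes were found together in 48 of 314 and 1 of 38 Plzf lu/lu cells, and in 0, 1 and 2 cells of the Plzf +/+ libraries of plates 1, 2 and 4. None of the 3 was found in 8 and 3 Plzf lu/lu cells, and in 139, 115 and 97 Plzf +/+ cells.

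Plate 4 also holds 5 cells whose table and well label disagree. The labels give the first wells, through C14, to Plzf lu/lu cells and those from C16 to Plzf +/+ cells, yet the cells in wells C4, C5, C6, C7 and C9 are listed in the Plzf +/+ table. No barcode of the plate occurs in both tables. The cell in C4 had 612 UMIs in all and none of Rps15a-ps8 or Rps15a. Those in C5, C6, C7 and C9 had 4, 4, 3 and 5 UMIs of Rps15a-ps8 beside 5, 10, 5 and 10 of Rps15a, a share of 44.4%, 28.6%, 37.5% and 33.3%. Together the 5 cells held 16 UMIs of Rps15a-ps8 and 30 of Rps15a, a share of 34.8% (21.4 to 50.2). The share was 5.67% (5.01 to 6.39) in the other 272 Plzf +/+ cells of the plate and 37.2% (33.8 to 40.7) in its Plzf lu/lu cells. The pooled share of these 5 cells thus lay inside the interval of the Plzf lu/lu cells and outside that of the other Plzf +/+ cells. The cell in C6 also held 1 of the 3 Gm12751 UMIs of the plate 4 Plzf +/+ library. The cells in C6 and C9 had 2 and 1 UMIs of Gfra1, a receptor of undifferentiated spermatogonia. In the library sums and shares of cells above they were left in the group of the table that lists them, and they are left out of the values by kind of cell given below. Without them the lowest Plzf lu/lu share of cells with Rps15a-ps8 exceeded the highest Plzf +/+ share by 38.4 percentage points, against 38.0 with them.

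**Figure D3:**
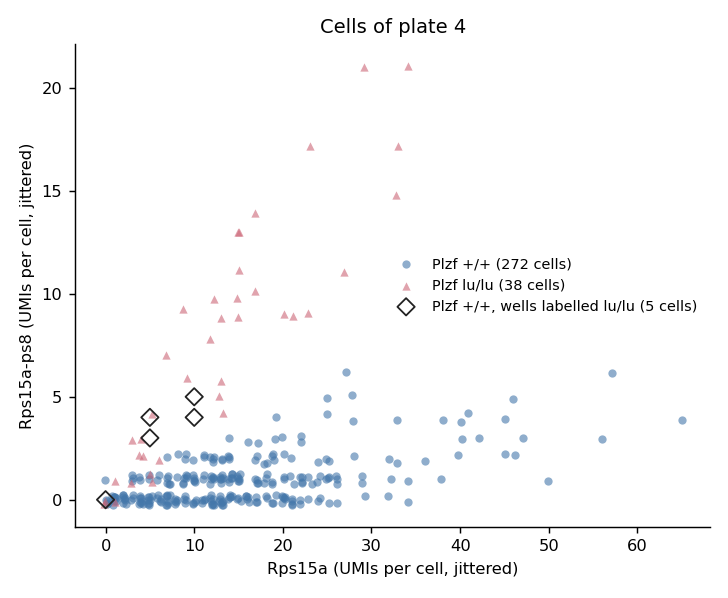
UMIs of Rps15a (horizontal axis) and of Rps15a-ps8 (vertical axis) in each cell of plate 4, shifted slightly at random so that equal values can be seen; circles are Plzf +/+ cells, triangles Plzf lu/lu cells and diamonds the 5 Plzf +/+ cells from wells labelled Plzf lu/lu. Away from the origin the genotypes lie along separate slopes, and the diamonds with UMIs of the pair lie along that of the Plzf lu/lu cells.

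**Figure D4:**
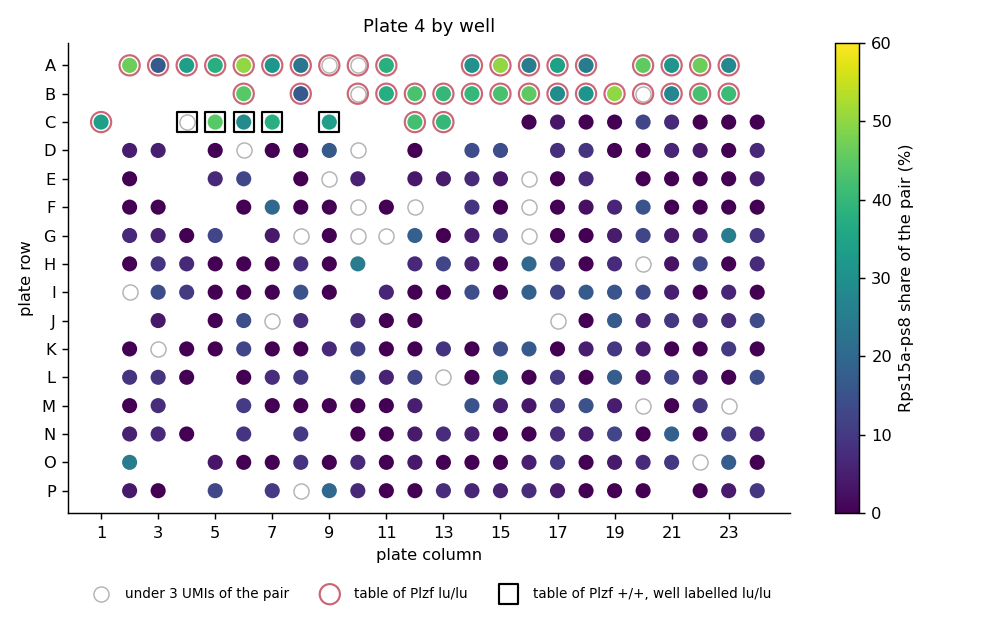
Plate 4 by row and column of the well, colored by the Rps15a-ps8 share (%) of the pair in cells with at least 3 UMIs of it; red rings are cells of the Plzf lu/lu table and black squares the 5 cells of the Plzf +/+ table in wells labelled Plzf lu/lu. Most colored cells of rows A and B and of row C through C13 have high shares, including 4 of the 5 squares (C4 had no UMI of the pair), and most in the rows below have low shares.

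By plate row, the pair told the same. The Plzf lu/lu cells of rows A, B and C had Rps15a-ps8 shares of 35.8%, 38.1% and 40.7%. In rows D to P, which hold Plzf +/+ cells only, the share ranged from 2.61% in row F to 7.89% in row I. The Plzf +/+ cells of row C, among them the 5 above, had 8.88%. Row F, the lowest, held 6 UMIs of Rps15a-ps8 among 20 cells.

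The other copies of Rps15a had smaller log2 fold changes than Rps15a-ps8. The tables list 8 pseudogenes of Rps15a and all were tested; none of the other 7 was called, where 0.816% of all genes were. Rps15a-ps1 to Rps15a-ps7 had log2 fold changes from -0.18 to 0.78, with edgeR adjusted p from 0.213 for Rps15a-ps2 to 0.963 for Rps15a-ps3. Rps15a-ps2 had 31.8, 23.4 and 32.3 CPM in Plzf +/+ and 49.0 and 52.3 CPM in Plzf lu/lu. It alone of the 7 had both Plzf lu/lu libraries above all 3 Plzf +/+ libraries, as 18.5% of the genes tested did. Rps15a-ps5, the most abundant of the other 7, had 270, 235 and 345 CPM against 287 and 197 CPM, with overlapping groups. The other 7 together made up 19.7%, 19.6% and 22.6% of their UMIs plus those of Rps15a in Plzf +/+, and 23.2% and 17.5% in Plzf lu/lu. The Rps15a family without Rps15a-ps8 summed to 2578, 2279 and 2798 CPM against 2673 and 2409 CPM, which overlap. With Rps15a-ps8 the sums were 2684, 2382 and 2935 CPM against 3773 and 3588 CPM, which do not. When all 8 pseudogenes were added to Rps15a, the log2 fold change was 0.47. That row and the sums with Rps15a-ps8 hold the UMIs of a gene chosen for its difference, so they are described and not tested.

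**Figure D5:**
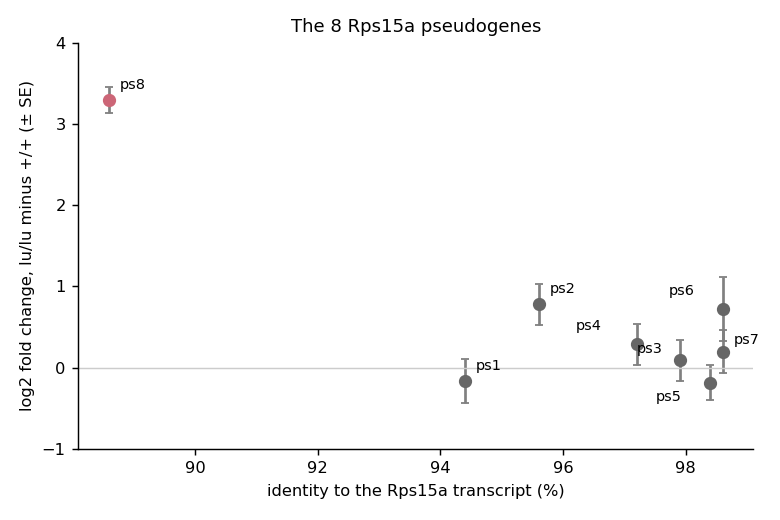
Log2 fold change of each of the 8 Rps15a pseudogenes (vertical axis, with its standard error) against its identity to the Rps15a transcript (horizontal axis, %). Rps15a-ps8, in red, stands alone at 88.6% identity and a log2 fold change of 3.30, while the other 7 lie between 94.4% and 98.6% and between -0.18 and 0.78.

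Sequence sets Rps15a-ps8 apart as well. It had the lowest identity to Rps15a of the 8 copies, and it alone carried a run of inserted bases before the stop codon. The other 7 were 94.4% to 98.6% identical to the parent over 428 or 429 matched bases. Rps15a-ps3 and Rps15a-ps4 also lie on chromosome 4 of GRCm38, at chr4:150847090-150847541 and chr4:132219893-132220589, and neither was called.

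Calls among other pseudogenes are read against the 0.816% of all genes called, a rate at which short lists hold few or none. Of 153 tested cytosolic ribosomal protein pseudogenes other than Rps15a-ps8, none was called (0 by edgeR, median log2 fold change 0.08, against 0.00 over all genes). None was called among 211 other genes with a symbol ending in -ps, or among the 2 other mitochondrial ribosomal protein pseudogenes, Mrpl48-ps and Mrps36-ps1. Of 1103 other tested genes that RefSeq annotates as pseudogenes, 2 were called (0.181%), Gm26983 higher and Gm14648 lower. Among the parents' own classes, 2 of 79 cytosolic ribosomal protein genes were called (2.53%), both higher in Plzf lu/lu. Rpl39, a large subunit protein, had 219, 196 and 294 CPM against 553 and 459 CPM (log2 fold change 1.11, edgeR adjusted p = 0.0485). Rps4x, the X-linked small subunit protein, had 300, 246 and 221 CPM against 583 and 611 CPM (log2 fold change 1.22, edgeR adjusted p = 0.0204). None of 46 mitochondrial large subunit genes was called, although 42 had a positive log2 fold change (median 0.29), the largest being 0.73 for Mrpl52 (edgeR adjusted p = 0.0770). Mrpl23, itself 1 of these 46 genes, had a log2 fold change of 0.50. That of Mrpl23-ps1, whose match is identical to Mrpl23, was 0.69, which also lay within their range.

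The neighbors of the pseudogenes, 32 tested genes in all, held no gene called higher, where 0.583% of all genes were. Within 1 Mb of Rps15a-ps8, 10 other genes were tested. Of these, 9 had a negative log2 fold change and the highest was 0.32, where the median over all genes was 0.004. Whether these neighbors differed as a group was not tested. Tmem38b had 32.3, 44.8 and 43.1 CPM against 33.9 and 40.2 CPM, with overlapping groups. Tal2 had 0, 9 and 4 UMIs in Plzf +/+ and 7 and 0 in Plzf lu/lu. Abca1, a cholesterol efflux transporter gene 631043 bases away, was the 1 gene called there. It had 203, 208 and 235 CPM against 89.7 and 92.5 CPM (log2 fold change -1.25, edgeR adjusted p = 0.0201), lower in both Plzf lu/lu libraries. Around Gm12751, 13 other genes were tested and none was called, with a median log2 fold change of 0.03. Around Mrpl23-ps1 none of 9 was called. On chromosome 4 as a whole, 4 of 844 tested genes other than the members were called (0.474%).

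Among all 26041 symbols, Rps15a-ps8 had the largest gap in detection between the genotypes. The gap was taken as the share of cells with a UMI in the lowest Plzf lu/lu library minus that in the highest Plzf +/+ library, and it was 38.0 percentage points. Gm12751 ranked seventh, with 19.4 points, and Mrpl23-ps1 had a gap of -5.03 points and ranked 19826. Other than the members, the genes with the largest gaps over the 5 libraries were Coro1a (26.5 points), Anxa2 (24.03), Chchd10 (21.2), Cyfip2 (21.1) and Gm26870 (20.2). They were followed by Gm26983 (18.7), Cd63 (18.6), Snrpn (17.9), Ptgr1 (17.8) and Rsph9 (17.7). Coro1a, an actin-binding protein gene, was detected in 6.62%, 6.93% and 10.1% of Plzf +/+ cells and in 36.6% and 36.8% of Plzf lu/lu cells. Anxa2, a membrane-binding annexin gene, was detected in 8.52%, 14.2% and 11.2% against 38.2% and 39.5%. Neither reached the detection of Rps15a-ps8 in Plzf lu/lu cells. In the other direction the largest gaps were those of Eif4g3 (30.0 points), Abca1 (24.9), 4932438A13Rik (23.0), Ankrd12 (22.8) and Mpped2 (22.3). Eif4g3, a translation initiation factor gene, was detected in 59.3%, 66.7% and 62.1% of Plzf +/+ cells and in 29.3% and 28.9% of Plzf lu/lu cells.

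The share of Rps15a-ps8 in its pair and its level were also taken by kind of cell. In Plzf lu/lu cells of plate 3 it was 35.2% in cells with a Gfra1 UMI and 34.7% in those without, and on plate 4 37.6% and 36.9%. In Plzf +/+ cells the same shares were 4.93% and 4.84% on plate 1, 5.52% and 4.87% on plate 2, and 5.56% and 5.86% on plate 4. A UMI of Dazl or Ddx4, which mark germ cells, was found in 97.8%, 93.7% and 96.4% of Plzf +/+ cells on plates 1, 2 and 4 (all cells of the tables, the 5 set-apart cells included) and in 95.9% and 86.8% of Plzf lu/lu cells on plates 3 and 4. On plate 4, the only plate with both genotypes, the Plzf lu/lu share was thus the lower, 33 of 38 cells, at a median depth of 5061 UMIs against 5829. The summed level of both markers went the other way, at 1244 to 1362 CPM in Plzf +/+ libraries against 1644 and 1677 CPM in Plzf lu/lu libraries, and neither gene was called. In the 13 Plzf lu/lu cells of plate 3 without either, Rps15a-ps8 had 39.1% of the pair (27.1 to 52.1). In cells up to and over the median depth of plate 3 it had 33.6% and 35.4%. Its level in UMIs per 1000000 was 475 in the cells of plate 3 without Dazl or Ddx4 and 1071 in those with either, and 616 in the 36 cells with at least 10 UMIs of spermatid markers, where the share was 34.8%. It was 663 in the 36 cells with at least 3 Sertoli marker UMIs, where the share was 35.7%, and in the 6 such cells of plate 4 the share was 44.8% (35.9 to 54.0).

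Some lists of cell type markers moved with the genotype. The germ cell sum, above, was higher in both Plzf lu/lu libraries, and 9 markers of undifferentiated spermatogonia summed to 819 to 846 CPM in Plzf +/+ against 672 and 571 CPM in Plzf lu/lu (plates 3 and 4), with Zbtb16 the 1 gene called, lower. Markers of Sertoli cells, the somatic cells that nurse the germ cells, were higher. Of 8 such genes 6 were tested and 4 were called higher in Plzf lu/lu (Sox9, Cldn11, Rhox8 and Amhr2), where 0.583% of all genes were. Without the plate 4 Plzf lu/lu library Amhr2 alone of the 4 was called, and none was without the plate 2 or plate 4 Plzf +/+ library or the plate 3 Plzf lu/lu library. The calls of Rpl39, Rps4x, Abca1 and Zbtb16 were lost in each of these 4 fits. The Sertoli list summed to 39.8 to 52.3 CPM in Plzf +/+ against 267 and 201 CPM in Plzf lu/lu (plates 3 and 4). The part of these cell types in the levels of the pseudogenes was not tested. In cells with no UMI of any Sertoli marker (a count that does not by itself tell what a cell is) Rps15a-ps8 stood at 110, 117 and 139 UMIs per 1000000 in Plzf +/+ and at 1151 and 1214 in Plzf lu/lu. Gm12751 stood at 0, 1.21 and 0 UMIs per 1000000 in the same Plzf +/+ cells, from which the cell in C6 with its Gm12751 UMI was left out, and at 47.7 and 44.5 in the Plzf lu/lu cells. It was more frequent in the 36 Plzf lu/lu cells of plate 3 with at least 3 Sertoli marker UMIs, where 61.1% had a UMI, than in the 229 cells without one, where 24.9% had, at median depths of 5544 and 5772 UMIs. On plate 4 these shares were 33.3% of 6 cells and 21.4% of 28, at median depths of 6758 and 3491 UMIs, while the level ran the other way, 34.3 against 44.5 UMIs per 1000000. In the 36 cells of plate 3 with at least 10 spermatid marker UMIs, at a median depth of 10900 UMIs, Gm12751 had a UMI in 50.0%, against 43.9% of all cells of that plate over its median depth, whose own median was 10370 UMIs. On plate 4 it had one in 1 of 4 cells with as many spermatid marker UMIs. In cells without Dazl or Ddx4 it had a UMI in 46.2% of 13 on plate 3, at a median depth of 2600 UMIs, but in 0 of 5 on plate 4, against 29.9% and 24.2% of the cells with either marker. In Plzf +/+ cells without the 5 set apart, 4 of 8 Gm12751 UMIs lay in cells with at least 3 Sertoli marker UMIs. Such cells had median depths of 8267 UMIs on plate 2 and 18625 on plate 4, against 6111 and 5829 in these libraries as a whole. In cells with at least 10 spermatid marker UMIs lay 4 of 5 Gm12751 UMIs on plate 2 and 0 of 2 on plate 4. All 5 and both 2 lay in cells over the median depth. Zbtb16, the check of the labels, fell from 66.9 ± 13.3 CPM (SD, n = 3) to 15.2 ± 4.43 CPM (SD, n = 2), with a log2 fold change of -1.97 (edgeR adjusted p = 0.0319).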

How the data were processed

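The deposited tables hold raw UMI counts per gene symbol and cell, 1 table per genotype, without normalization by the authors. The submitters' processing notes name bcl2fastq 2.18.0.12, Picard 2.9.3, STAR 2.5.4a and GRCm38. The treatment of reads with several matches is not given in the sources used here. Libraries held 254514 to 2608702 UMIs, 612 to 95069 per cell. All 1249 cells were kept, with no doublet removal. The study ran edgeR with cells as replicates. Cells of 1 library are not independent, so UMIs were summed per library (3 Plzf +/+, 2 Plzf lu/lu) and fitted with edgeR 4.0.16 (R 4.3.3): filterByExpr (13728 genes), TMM, glmQLFit and glmQLFTest with robust estimation, Benjamini-Hochberg adjustment over all genes, called under 0.05. On counts simulated for this comparison (13728 genes) 121 of 195 changed genes were called, with 16 false calls among 137 (11.7%), above the threshold of 0.05. Values in cells used exact Clopper-Pearson 95% intervals, and thinning took 2000 or 1000 UMIs per cell. Genes were matched by symbol, and copies were found with BLAST 2.17.0 on NCBIM37. Coordinates come from RefSeq on GRCm38.p6.

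The members, gene lists and tests were chosen with earlier results of these data known. Named genes are the members, parents and families, from each class the 3 largest and 3 smallest log2 fold changes among genes called (else tested), and the 10 and 5 genes with the largest gaps in detection. Polr1d, the subsets of cells and Tal2 were added after the values were seen.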

Additional observations from a re-analysis of the deposited data

How the results depend on the processing

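The labels give no replicate numbers shared as pairs. No paired analysis was possible because only plate 4 held both genotypes. Of the genes called, 112 in all, the number was 583 with no filter on low counts, 366 with cells thinned to 2000 UMIs, and 1 to 1387 when 1 library was left out; 82 to 135 under the other settings. The log2 fold change of Rps15a was near 0, and its sign turned. It was 0.021 in cells with a Dazl or Ddx4 UMI, 0.15 with thinned cells and -0.066 to 0.017 with 1 library left out. With the pseudogenes added it was 0.47, in a row that holds the UMIs of Rps15a-ps8. Mrpl23 ranged from -1.17, without the plate 3 Plzf lu/lu library, to 0.83 without a library, and Polr1d from -0.25, without that same library, to 0.31. The gap in the share of cells was 58.1, 47.5 and 58.5 points for Rps15a-ps8 at 2000 UMIs, 1000 UMIs and a minimum of 2 UMIs (38.0 as deposited). For Gm12751 it was 6.50, 4.93 and 2.63 points, and 22.5 in cells with a Dazl or Ddx4 UMI (19.4). For Mrpl23-ps1 it was 1.44, 0.648 and 5.22, and -3.01 in those cells (-5.03), so its sign changed with the depth and the minimum. The 38 Plzf lu/lu cells of plate 4, with 254514 UMIs, limit every statement within that plate.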
